A study of Rattus norvegicus with 6 samples.

Results

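The balance between extracellular proteases and their inhibitors in the testis was examined in 10 genes, the tissue inhibitors of metalloproteinases Timp1, Timp2 and Timp3, the matrix metalloproteinases Mmp2, Mmp9 and Mmp14, the secreted ADAMTS proteases Adamts1, Adamts5 and Adamts15, and Plau, the gene of urokinase plasminogen activator. Each was taken by its symbol from a table of 35291 genes, and each symbol occurred once. The 10 genes were chosen by function with their levels in these same rats already known, so the differences between the groups are given for them as a description and carry no test. RNA-Seq of whole testis came from 3 rats with streptozotocin (STZ) induced diabetes (DM) and 3 rats labelled Normal, called non-diabetic (ND) here. All 6 were adult male Sprague-Dawley rats, an outbred strain. The DM rats had been fed a high-fat diet and then given 1 intraperitoneal injection of STZ at 35 mg/kg, an agent toxic to pancreatic beta cells, and the ND rats were injected with citrate buffer. Testes were taken 8 weeks after the injection. The diet of the ND rats and the exact ages of the rats are not given in the sources used here, so diet and STZ cannot be told apart.

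Matrix metalloproteinases and ADAMTS proteases are zinc enzymes that cut collagens, laminins and proteoglycans outside the cell, and TIMPs block them by occupying the catalytic zinc. MMP14 sits in the plasma membrane, where together with TIMP2 it activates the pro-form of MMP2, and urokinase converts plasminogen to plasmin, which cuts matrix and activates other proteases. In the seminiferous epithelium this proteolysis is known from the opening of the junctions between Sertoli cells for migrating germ cells and from the release of sperm.

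Levels are FPKM, fragments per kilobase of transcript scaled to library size by the authors, so levels of different genes can be set side by side. Errors are SD over 3 rats. Differences are log2 fold changes, DM minus ND, on log2(FPKM + 0.1), with a standard error (SE) from limma fitted across all genes, and this scale understates the difference of low genes. Genes averaging 0.5 FPKM or more across the 6 rats were tested, 20338 in all, which included 8 of the 10 genes. Mmp2 and Adamts15 lay below that level, and their differences and SE come from the same fit without the filter, over 30782 genes. Totals ran from 453304 to 478211 FPKM per rat. The number of reads is unknown, but the relative depth read from low values was 0.966 to 1.09 in the DM rats and 0.893 to 1.02 in the ND rats, against a mean of 1. The tissue label was borne out by germ cell genes, with the summed level of 6 spermatid markers at 10699 to 12898 FPKM in the 6 rats, although the library protocol in the labels mentions adipose tissue.

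Timp1 had the largest fitted difference of the 8 genes past the filter. Its protein inhibits most MMPs and also acts as a growth factor. Timp1 (ENSRNOG00000010208) stood at 2.44, 2.14 and 2.53 FPKM in the DM rats and at 5.01, 6.53 and 4.68 FPKM in the ND rats. Every DM rat was below every ND rat, and ND replicate 2 was the highest. The means were 2.37 ± 0.204 and 5.41 ± 0.988 FPKM (SD, n = 3 each), a mean 56.1% lower in DM. The log2 fold change was -1.14 with an SE of 0.16, and it lay between -1.24 and -1.002 when any 1 rat was left out.

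Timp2, whose protein both inhibits MMP2 and helps MMP14 to activate it, had the highest level of the 10 genes. Timp2 (ENSRNOG00000003148) was at 46.6, 47.7 and 53.2 FPKM in the DM rats and at 61.5, 58.7 and 47.8 FPKM in the ND rats. The ranges overlapped through ND replicate 3, with a log2 fold change of -0.18 and an SE of 0.11. Timp3, whose protein is held in the matrix and also inhibits ADAMTS enzymes, was at 8.54, 9.20 and 9.63 FPKM in the DM rats and at 10.1, 10.0 and 9.16 FPKM in the ND rats. Its ranges overlapped too, with a log2 fold change of -0.098 and an SE of 0.086. Of the summed level of Timp1 to Timp4, Timp1 held 4.12%, 3.53% and 3.80% in the DM rats and 6.37%, 8.44% and 7.43% in the ND rats. Timp2 held 78.7%, 78.5% and 79.8% in the DM rats and 78.3%, 75.8% and 76.0% in the ND rats, which were separate.

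Several of these loci are nested with or overlap other genes in RefSeq (assembly GRCr8), and whether the counting used strand is not stated. The Plau model overlaps that of the long non-coding RNA gene LOC120096900, whose part in the level of Plau was not tested. The Timp1, Timp3 and Timp4 models lie inside those of the synapsin genes Syn1, Syn3 and Syn2. Syn1 was low, at 0.242, 0.138 and 0.219 FPKM in the DM rats and at 0.151, 0.286 and 0.195 FPKM in the ND rats, and the groups overlapped. The part of Syn1 reads in the level of Timp1 was not tested. Syn3 was at 0.897 to 1.48 FPKM in the DM rats and at 1.63 to 1.73 FPKM in the ND rats. The Timp2 model instead contains a whole other gene, Cep295nl, which was listed at 332.6 ± 5.74 FPKM in the DM rats and at 324.1 ± 12.1 FPKM in the ND rats (SD, n = 3 each). That level was several times that of Timp2, and reads of Cep295nl assigned to Timp2 cannot be told apart from Timp2's own in this table. The rank of Timp2 among the 10 genes is uncertain to that extent. So are its difference between the groups and the shares and ratios that contain it.

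RefSeq promoters, from 250 bases before to 50 after the start of a gene (GRCr8), were at hand for 5 of the 10 genes. The GC box GGGCGG, read on both strands, was found in 5 of 5, and in 33.1% of all 33469 promoters of that length. The AP-1 letters TGANTCA were in 0 of 5 and in 7.33% of all, TATAAA in 1 of 5, Adamts1, and in 14.2% of all, and the ETS letters AGGAAG in 1 of 5, Timp1, and in 34.5% of all. The matches of TATAAA and GGGCGG in Adamts1 lie side by side and do not overlap. The 5 promoters had a GC content of 61% to 70.3%, and the share with a GC box among promoters of like content was not counted. A link between these letters and the levels in the rats was not tested. For 4 of the 5, each line gives 29 bases, 5′ to 3′ along the gene, around the GC box nearest the start, with the match in capitals, and each lies on the minus strand.
Timp1, chrX:3771247-3771275, match from position -142: cagcctggggcCCGCCCctaggctttgac
Timp2, chr10:104089251-104089279, match from position -54: gcgctcgctcgCCGCCCcctagcctcttt
Adamts1, chr11:38427430-38427458, match from position -63: tggctataaagGGGCGGccgaggctgcct
Plau, chr15:3512057-3512085, match from position -87: ggcccgggcccGGGCGGgccctattaaag
The 2 ETS matches of Timp1 start at positions -230 and -94, the nearer at chrX:3771199-3771227 on the minus strand: gtaatgcgtccAGGAAGcctggaggcagt. These matches are letters only and no binding was measured.

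The 3 MMP genes did not share a pattern. Mmp2, the gene of gelatinase A, was at 0.128, 0.0937 and 0.179 FPKM in the DM rats and at 0.612, 0.386 and 0.254 FPKM in the ND rats. All DM rats lay below all ND rats, but every level was low and the ND rats spread widely, with means of 0.134 ± 0.0429 and 0.417 ± 0.181 FPKM (SD, n = 3 each). On the log2 scale Mmp2 differed by -1.10 with an SE of 0.35, a value that was -0.32 with a pseudocount of 1 and -1.53 with a pseudocount of 0.01. Mmp14, the activator of MMP2, was at 5.74, 6.24 and 6.15 FPKM in the DM rats and at 6.76, 7.16 and 6.005 FPKM in the ND rats. The groups overlapped through ND replicate 3, with a log2 fold change of -0.13 and an SE of 0.10. Mmp9, the gene of gelatinase B, was at 0.914, 0.669 and 0.679 FPKM in the DM rats and at 0.811, 0.671 and 0.789 FPKM in the ND rats. Its means of 0.754 ± 0.138 and 0.757 ± 0.0753 FPKM (SD, n = 3 each) differed by far less than the spread between rats, and the sign of its log2 fold change of -0.013 (SE 0.25) turned under median-ratio scaling between rats.

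The ADAMTS genes were low in both groups. Adamts15, whose protein cuts the large proteoglycans, was at 0.109, 0.171 and 0.366 FPKM in the DM rats and at 0.680, 0.422 and 0.391 FPKM in the ND rats. The groups were separate, but only by 0.0243 FPKM between DM replicate 3 and ND replicate 3. The log2 fold change of Adamts15 was -0.97 with an SE of 0.39, and it was -0.30 with a pseudocount of 1 and -1.29 with a pseudocount of 0.01. Adamts5, which encodes an aggrecanase, was at 1.10, 0.715 and 0.687 FPKM in the DM rats and at 0.948, 1.54 and 1.24 FPKM in the ND rats. DM replicate 1 lay inside the ND range, and the log2 fold change was -0.53 with an SE of 0.28. Adamts1, whose protein cuts versican and aggrecan, was the only 1 of the 10 genes with a higher mean in DM. It was at 0.467, 0.670 and 0.623 FPKM in the DM rats and at 0.340, 0.683 and 0.438 FPKM in the ND rats, so that the lowest and the highest rat were both ND. Its log2 fold change of 0.26 had an SE of 0.35, and it was 0.069 without ND replicate 1, 0.48 without ND replicate 2 and 0.098 with a pseudocount of 1. Adamts1 and Adamts5 are neighbours in GRCr8, with 0 protein-coding genes between them, and their fitted differences had opposite signs.

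Plau was at 4.9999, 4.62 and 5.40 FPKM in the DM rats and at 4.71, 7.06 and 4.84 FPKM in the ND rats. ND replicate 2 stood above the other 5 rats, which lay close together. The log2 fold change of -0.12 had an SE of 0.17, and it was 0.063 without ND replicate 2.

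**Figure D1:**
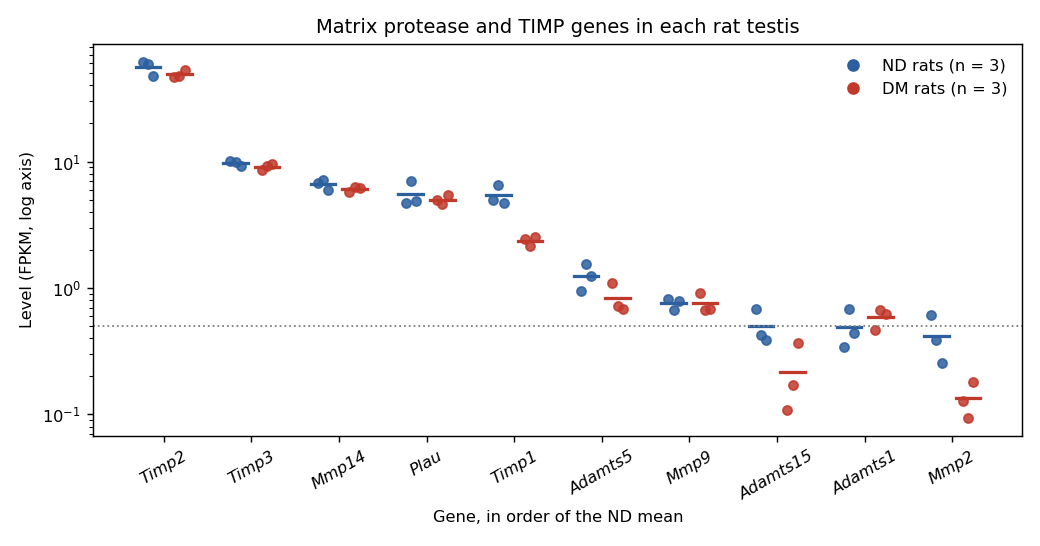
Level of the 10 genes in each rat (FPKM, log axis), with ND rats in blue, DM rats in red, a bar at each group mean of 3 rats and a dotted line at 0.5 FPKM. The DM and ND points are apart for Timp1, Adamts15 and Mmp2 and overlap for the other 7 genes.

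Counted over the 10 genes, 9 had a negative log2 fold change, and the groups did not overlap for 3, all lower in DM. Of the 8 genes past the filter, 7 had a negative value, or 6 under median-ratio scaling, and the groups did not overlap for 1. The share of all genes with a negative value was not counted. Over the 30782 genes with a value above 0 in some rat, 7.46% were lower in DM without overlap, and over the genes past the filter 8.42% were. Genes were screened by a log2 fold change of 1 or more in size together with an unadjusted p-value under 0.05, called the criterion here. The study set the same limits and does not say whether its p-value was adjusted. In limma 1 of the 8 genes past the filter met it, Timp1, where 1.24% of all genes tested did. Without the filter 2 of the 10 met it, Timp1 and Mmp2, against 2.02% of all genes. With a pseudocount of 1 the count was 0 of 8, since the log2 fold change of Timp1 was then -0.92. At an adjusted p-value below 0.05 in limma the count was 0 of 8, against 0.0344% of all genes tested. Because the genes were chosen with these values known, nothing follows from the shares. The median log2 fold change was -0.13 over the 8 genes past the filter and -0.16 over all 10, and it was -0.021 over all genes tested.

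**Figure D2:**
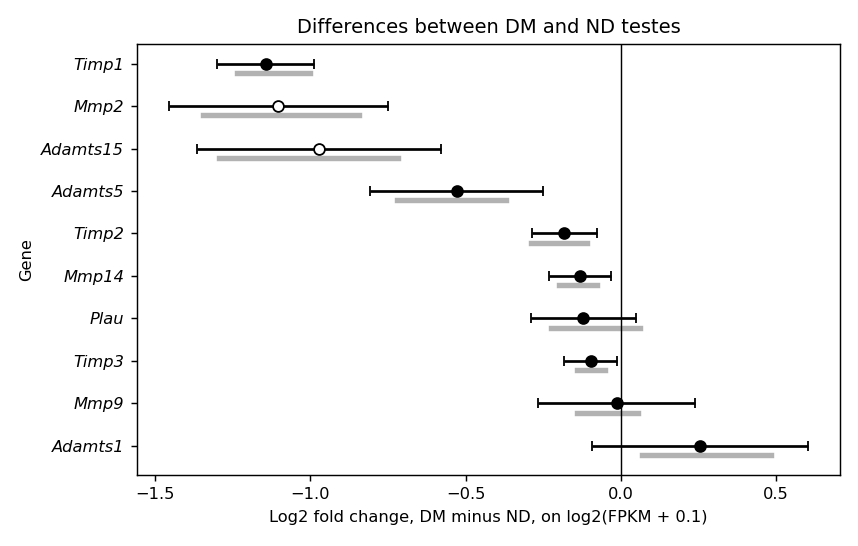
Log2 fold change of each gene, DM minus ND, with its SE as black bars. Grey bars give the range of the difference when each of the 6 rats was left out in turn, and open points mark the 2 genes below the filter. Timp1, Mmp2 and Adamts15 lie near -1, and the other 7 genes lie between -0.53 and 0.26.

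In the order of their levels, the ND rats showed Timp2 first, followed by Timp3, Mmp14, Plau, Timp1, Adamts5, Mmp9, Adamts15, Adamts1 and Mmp2. The ranges of Mmp14, Plau and Timp1 overlapped from one to the next, as did those of the last 4 genes, while Timp2, Timp3 and Adamts5 were separate from the gene below them or above them. In the DM rats the order was the same for the first 7 genes, and Adamts1 stood above Adamts15. Timp1 there was separate from both Plau and Adamts5, and Plau was separate from Mmp14. The highest and the lowest of the 10 genes in ND, Timp2 and Mmp2, had means of 56.0 ± 7.21 and 0.417 ± 0.181 FPKM (SD, n = 3 each).

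Ratios within a rat do not depend on how its library was scaled. Timp1 over Timp2 was 0.0524, 0.0449 and 0.0476 in the DM rats and 0.0814, 0.111 and 0.0978 in the ND rats, which were separate. Mmp9 over Timp1 was 0.374, 0.312 and 0.268 in the DM rats and 0.162, 0.103 and 0.169 in the ND rats, so it was higher in every DM rat, with the level of Mmp9 alike in both groups and that of Timp1 lower. Mmp2 over Timp2 was 0.00275, 0.00196 and 0.00337 in the DM rats and 0.00994, 0.00658 and 0.00532 in the ND rats, in the opposite direction.

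Summed over the 6 metalloproteases and the 3 TIMPs, the ratio was 0.142 ± 0.00758 in the DM rats and 0.142 ± 0.00808 in the ND rats (SD, n = 3 each), with overlapping ranges. Mmp14 and Timp2 supply most of that ratio, so the limit given above for reads of Cep295nl applies to it. Mmp14 over Timp2 was 0.123 ± 0.00763 in the DM rats and 0.119 ± 0.00821 in the ND rats (SD, n = 3 each). Timp1 over Timp3 was 0.286, 0.233 and 0.263 in the DM rats and 0.494, 0.653 and 0.511 in the ND rats, which were separate. Ratios that hold Timp1 or Mmp2 carry the lower level of that gene and are not further results.

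**Figure D3:**
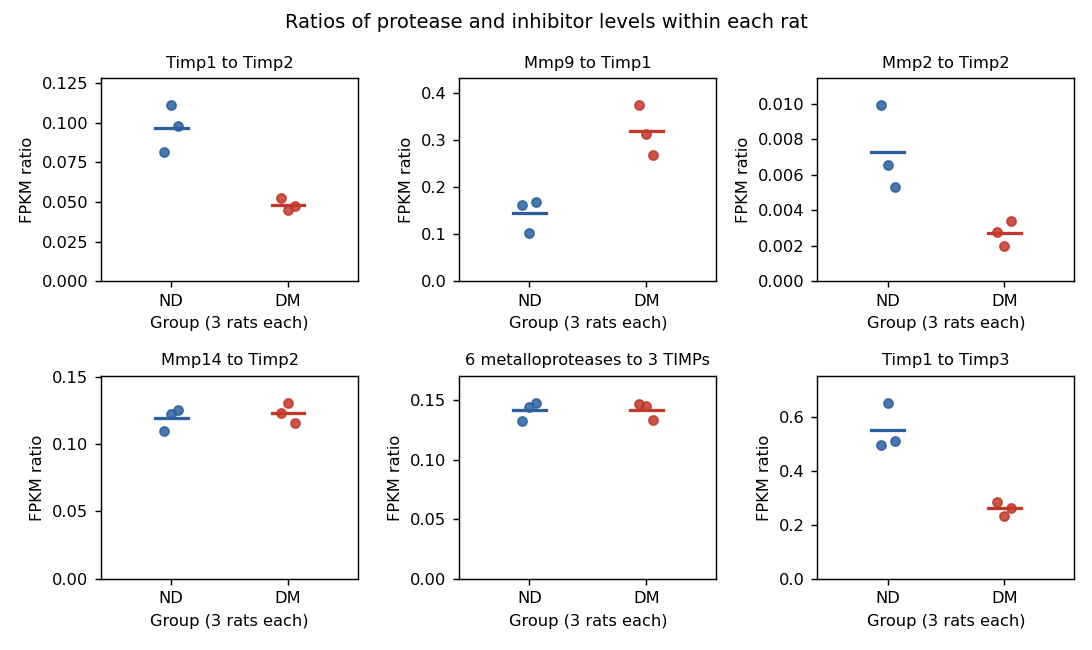
Ratios of FPKM within each rat for 6 pairs or sums (each axis from 0), with ND in blue, DM in red and a bar at the mean of 3 rats. Mmp9 to Timp1 is higher and Timp1 to Timp2, Mmp2 to Timp2 and Timp1 to Timp3 are lower in every DM rat, and Mmp14 to Timp2 and the summed ratio overlap.

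The sums of some cell type markers were lower in every DM rat too. In whole testis, fewer cells of a type and less RNA per cell cannot be told apart. The summed level of 6 Leydig cell genes was 27.3 to 57.3 FPKM in the DM rats and 84.5 to 117.2 FPKM in the ND rats, and 5 of the 6 passed the criterion, all lower in DM. Of 5 stromal genes tested, Col1a1 and Col3a1 passed it, both lower, and the sum was 8.17 to 9.94 FPKM in the DM rats and 13.2 to 16.5 FPKM in the ND rats. For 7 macrophage genes the sums were 27.3 to 32.6 FPKM in the DM rats and 32.8 to 35.4 FPKM in the ND rats, a narrow gap, and 0 of the 6 tested passed the criterion. Mrc1, the highest of them, overlapped between the groups, as did Cd163, Adgre1 and Cd14, while Cd68, Csf1r and C1qa were separate and lower in DM. The sums of Sertoli cell, smooth muscle, endothelial, spermatogonium, spermatocyte and spermatid genes overlapped between the groups, and 0 of their genes passed. For the Sertoli cell list, the sum was 286.7 to 300.4 FPKM in the DM rats and 239.0 to 301.5 FPKM in the ND rats. None of the listed markers in the table was at 0 in every rat. The part of these cells in the levels of Timp1, Mmp2 and Adamts15 was not tested.

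**Figure D4:**
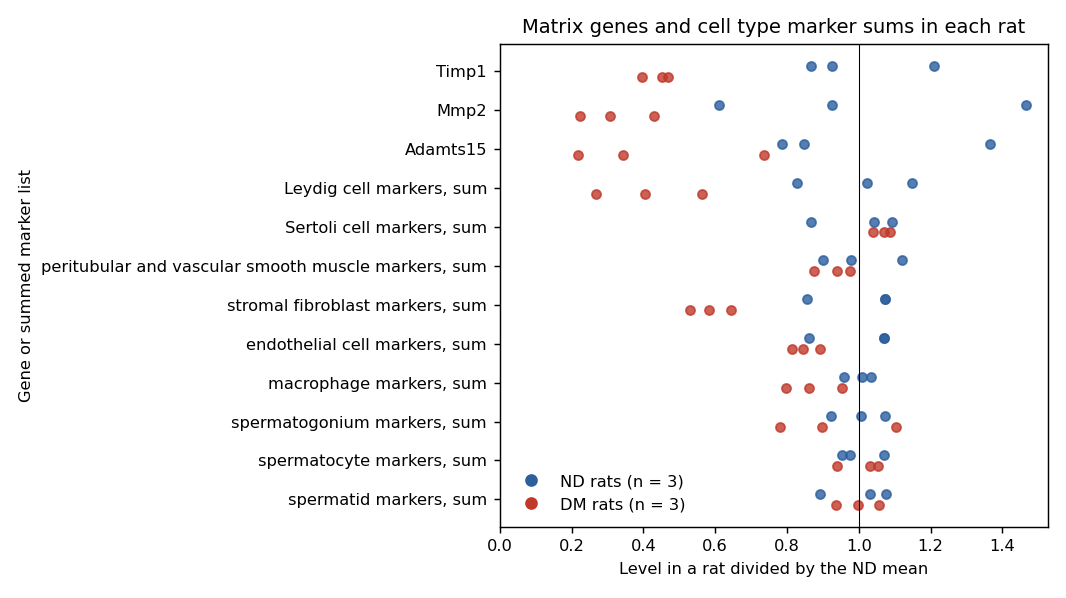
Level of Timp1, Mmp2 and Adamts15 and summed FPKM of 9 lists of cell type markers in each rat, divided by the ND mean (axis from 0), with ND in blue and DM in red. The DM points of Timp1 lie left of all ND points, as do those of the Leydig cell, stromal fibroblast and macrophage sums, and the Sertoli cell and germ cell sums overlap.

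The genes whose profile over the 6 rats was nearest to that of Timp1, by the root mean square difference of log2 levels centred on each gene's mean, were F2r and Selenop, out of 14987 genes with a symbol and a mean of at least 1 FPKM. F2r, which encodes a receptor activated by thrombin cleavage, was at 1.46 FPKM in the DM and 3.02 FPKM in the ND rats, with a difference in profile of 0.0896. Selenop, the gene of the selenium carrier selenoprotein P, was at 181.3 and 355.8 FPKM, with a difference of 0.112. For Adamts5 the nearest were LOC691551, at 0.0656, and Efemp2, the gene of the elastic fibre protein fibulin-4, at 0.0872. With so many genes and 6 rats, near profiles exist for most shapes.

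The other genes of matrix proteolysis were taken from 7 lists set by gene family, with 86 of 89 symbols in the table and 52 past the filter. In limma 0 of the 52 met the criterion and 0 reached an adjusted p-value under 0.05. An unadjusted limma p-value below 0.05 was found for 4, all lower in DM. Of all genes tested, 7.46% had such a p-value, lower and higher genes counted together. Of the 52, 30 had a negative and 22 a positive log2 fold change, with a median of -0.030 and a range of -0.85 to 0.50.

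Among the other MMP genes 5 of 18 were past the filter, 2 with a lower and 3 with a higher mean log2 level in DM. Mmp16, a membrane-bound enzyme, was at 2.66 ± 0.434 FPKM in the DM and 2.70 ± 0.636 FPKM in the ND rats, and Mmp28, which encodes epilysin, at 1.45 ± 0.564 and 1.324 ± 0.0141 FPKM (SD, n = 3 each). The 8 other ADAMTS genes past the filter had log2 fold changes between -0.54 and 0.13. Adamts6 was at 4.90 ± 0.116 and 4.68 ± 0.228 FPKM and Adamts10 at 4.30 ± 0.623 and 4.03 ± 0.467 FPKM in the DM and ND rats (SD, n = 3 each), above all 3 of the ADAMTS genes described first.

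The next list held further inhibitor genes together with the testican genes, with 6 tested, and no inhibition was measured. Spock2, which encodes the proteoglycan testican-2, had the highest level of them. It was at 36.0 ± 2.42 FPKM in the DM and 40.8 ± 4.71 FPKM in the ND rats (SD, n = 3 each). A2m, the gene of the general protease trap alpha-2-macroglobulin, was at 5.40 ± 0.457 and 5.35 ± 1.08 FPKM. In the plasminogen system 4 of 10 genes were tested. Serpina5, the gene of protein C inhibitor, was at 41.4 ± 4.30 and 41.6 ± 6.83 FPKM, and Plat, the gene of tissue plasminogen activator, at 2.50 ± 0.597 and 1.995 ± 0.372 FPKM.

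The proteoglycan genes, whose products ADAMTS enzymes and MMPs cut, held 3 of the 4 genes with an unadjusted p-value below 0.05, and these are named after their values were seen. Bgn, the gene of biglycan, was at 5.60, 4.57 and 7.17 FPKM in the DM rats and at 10.4, 10.8 and 9.73 FPKM in the ND rats. Its log2 fold change was -0.85 with an SE of 0.16 (limma adjusted p = 0.276), and it reached -1.02, past the criterion, without DM replicate 3. Ogn, the gene of osteoglycin, was at 3.50, 4.24 and 3.97 FPKM in the DM rats and at 6.45, 6.55 and 6.34 FPKM in the ND rats, a log2 difference of -0.71 (limma adjusted p = 0.152). Dcn, the gene of decorin, had separate groups too, with a log2 difference of -0.73 (limma adjusted p = 0.514) that was -0.47 without ND replicate 2. Fmod, the gene of fibromodulin, was at 6.45 ± 0.822 and 6.41 ± 1.01 FPKM (SD, n = 3 each), so the class was not uniform.

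The ADAM genes, which encode membrane-bound relatives of these proteases, had 0 past the criterion among 10 somatic and 11 germ cell genes tested in limma. The somatic ones had log2 fold changes between -0.38 and 0.48, and among them Adam17, the gene of the sheddase of tumour necrosis factor, was at 11.6 ± 0.648 FPKM in the DM and 12.3 ± 0.343 FPKM in the ND rats, and Adam10 at 8.93 ± 1.18 and 9.46 ± 0.804 FPKM (SD, n = 3 each). Those of germ cells were far higher, with Adam3a at 716.5 ± 50.5 and 689.7 ± 28.5 FPKM and Adam5 at 339.4 ± 34.0 and 335.9 ± 18.1 FPKM (SD, n = 3 each). The 11 tested had log2 fold changes between -0.19 and 0.075. Adam6, the fourth gene with an unadjusted p-value below 0.05, stood at the lower end, with 75.1 ± 2.18 and 85.4 ± 2.29 FPKM (SD, n = 3 each), at an adjusted p of 0.492 in limma.

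**Figure D5:**
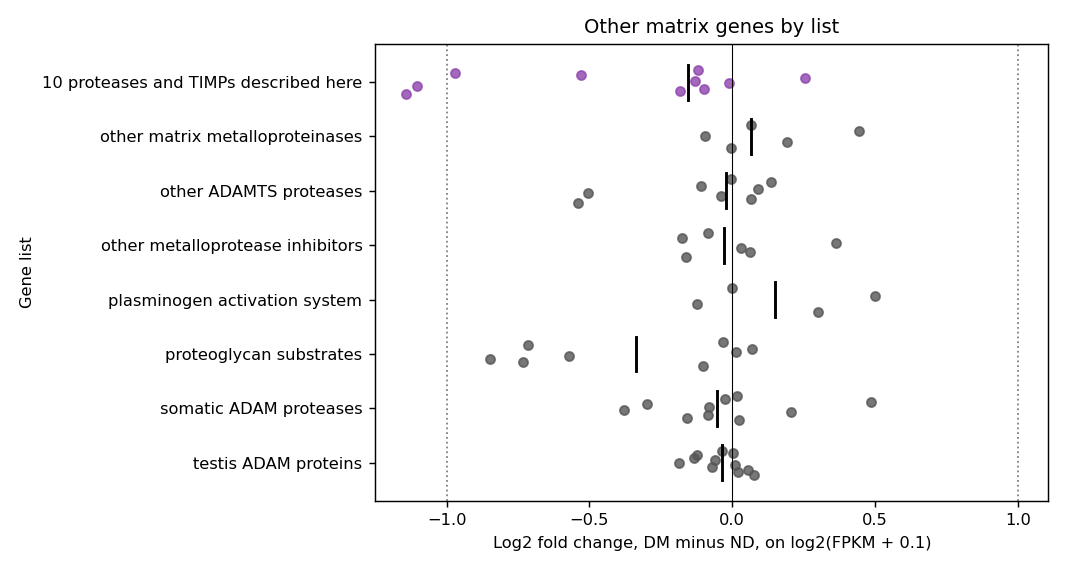
Log2 fold change, DM minus ND, of the 10 genes described first (purple, the 2 below the filter included) and of the tested genes of 7 further lists (grey), with a black bar at each median and dotted lines at -1 and 1. The 52 grey points lie between -0.85 and 0.50, and the points of Timp1 and Mmp2 lie beyond -1.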

How the data were processed

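Testis RNA-Seq of 3 DM and 3 ND rats was used, with conditions and replicate numbers from the labels. Each library was taken as 1 rat, which the labels do not spell out. The p-values set the group difference against the spread between these libraries, which limma moderates across genes. The authors checked reads with FastQC and screened rRNA with BWA, their processing notes also name STAR and StringTie, and they deposited FPKM per gene. Versions and genome build are not given in the sources used here. The table holds no counts, so the study's DESeq2 screen was not repeated.

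The values were taken as log2(FPKM + 0.1), genes below a mean of 0.5 FPKM were left out, and groups were compared with limma 3.58.1 (trend, two-sided, Benjamini-Hochberg) in R 4.3.3. An exact permutation test of 3 rats against 3 cannot go below 0.1 and was not used. Relative depth is the ratio most often shared by genes under 1 FPKM, found in 28 to 51 genes per pair. The fit was tested on simulated data. Python 3.11.15 made the tables and matplotlib 3.10.9 the figures.

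The 10 genes and the lists were chosen with earlier results of these data known. Named genes are the 10, list genes past the criterion, the 2 highest tested of each list, and the 2 nearest profiles of each of the 10 that was tested and differed by 0.5 or more on the log2 scale. Genes whose models overlap these, markers, Ogn, Dcn, Adam6 and the genes of the closing observations stand outside that rule. Alternatives changed the pseudocount, filter, scaling, eBayes settings, block, handling of repeated symbols and rats included. Symbols of all 10 matched RefSeq, and promoters of 5. Adamts5, Adamts15, Mmp2, Mmp9 and Mmp14 had no entry among the promoters. A ratio and a promoter window are not reported here.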

Additional observations from a re-analysis of the deposited data

How the results depend on the processing

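The pseudocounts, scalings and fits with a rat left out kept the direction of Timp1, Timp2, Timp3, Mmp14, Adamts1 and Adamts5. Mmp2 and Adamts15 lay below the filter of those fits. For them only the pseudocount and the rats included were varied, as differences of group mean log2 levels, and the direction was kept. The filter, eBayes, block and repeated-symbol settings cannot move a fold change here. The log2 fold change of Mmp9 turned to 0.0083 under median-ratio scaling and ran from -0.14 to 0.056 with each rat left out, and that of Plau ran from -0.22 to 0.063. With a rat left out, the DM over ND quotient of Mmp14 to Timp2 ran from 0.996 to 1.07 and that of the summed metalloproteases to TIMPs from 0.969 to 1.03. The count of the 10 genes past the criterion was 1 of 8, and 0 with a pseudocount of 1 and 2 without a filter. The count of the other matrix genes was 0 of 52 and ran from 0 to 1 with a rat left out, the 1 being Bgn without DM replicate 3. Over all genes the count was 253, with 172 lower, against 91 (55 lower) with a pseudocount of 1, 621 (385 lower) without a filter and 7 at an adjusted p-value below 0.05 in limma, and 246 to 335 with a rat left out. Where a value moved, the cause was not tested.

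With the replicate number as a block the counts were 1 of 8, 0 of 52 and 284 of all genes. Deviations from the group means of rats with the same number correlated at 0.106, 0.0153 and 0.0979 across genes, which are not independent. Rats with different numbers ran from -0.126 to 0.0318. DM replicates 1 and 3 correlated best with the ND rat of their own number, and DM replicate 2 with ND replicate 3. These values do not settle whether the numbers pair the rats, and they were not taken to. Depth in reads is unknown, which limits Mmp2, Adamts15 and Adamts1 most.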

Other observations

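Among the stromal markers, 2 fibrillar collagen genes passed the criterion, both lower in DM, and the genes here were named after their values were seen. Col3a1, a gene of fibrillar collagen cut by several MMPs, was at 1.13 ± 0.245 FPKM in the DM and 3.85 ± 0.551 FPKM in the ND rats (SD, n = 3 each), which is -1.70 on the log2 scale with an SE of 0.20. Pdgfra, the receptor gene of stromal and Leydig lineage cells, was at 5.18 ± 0.508 and 7.45 ± 0.642 FPKM (SD, n = 3 each) with separate groups. Pdgfrb, a related receptor gene, overlapped, at 1.01 ± 0.296 and 1.04 ± 0.125 FPKM, and so did Tcf21, at 0.816 ± 0.405 and 0.930 ± 0.287 FPKM (SD, n = 3 each). Among the macrophage markers, Csf1r was at 1.27 ± 0.144 and 2.27 ± 0.244 FPKM and C1qa at 1.40 ± 0.172 and 2.59 ± 0.597 FPKM (SD, n = 3 each), also separate, while Mrc1 overlapped, at 20.8 ± 2.54 and 21.6 ± 0.404 FPKM.

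Below the filter, Mmp10, Mmp27 and Serpinb2 were listed at 0 in every rat, and Plaur, the urokinase receptor gene, had a mean of 0.0121 FPKM over the 6 rats.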
